A study of Homo sapiens with 2 samples.

Results

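Transcripts of glycolysis and of the response to low oxygen were described in Huh-7, a cell line established from a human hepatocellular carcinoma, after knockdown of DEPDC1, which encodes a DEP domain protein. The list named 47 genes: enzymes and transporters of glycolysis, kinases that gate pyruvate entry into mitochondria, subunits and oxygen sensors of the hypoxia-inducible factors, other hypoxia targets and enzymes of gluconeogenesis. Members were matched by the gene symbol of the platform annotation, and each gene was read from the probe set that lists that gene alone and has the highest mean of both arrays. A probe set of its own was found for 42 of the 47 members, among 18417 genes with such a probe set in all. EGLN2 and PGAM1 were listed only on probe sets that also name another gene, and SLC16A1, SLC16A3 and CA9 were not analysed here.

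Total RNA was measured on 2 Affymetrix arrays, 1 from cells given DEPDC1 siRNA and 1 from cells given NC, which the labels call control, both collected 72 h after transfection. The oxygen level of the cultures, the number of siRNAs and their sequence are not given in the sources used here. With 1 array for siRNA and 1 for NC, the spread between cultures is unknown, no test was possible, and higher or lower refers to these arrays alone. Values are the deposited log2 expression, and differences are siRNA minus NC. The targeted transcript DEPDC1 had a log2 expression of 5.15 in siRNA cells and 7.82 in NC cells, a difference of -2.67.

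Glycolysis converts glucose to pyruvate, which is either reduced to lactate or passed into mitochondria, where the pyruvate dehydrogenase complex feeds it into respiration. Under low oxygen, HIF-1 alpha escapes hydroxylation by the EGLN prolyl hydroxylases and degradation through VHL, pairs with ARNT and raises transcription of glucose transporters, most glycolytic enzymes and the pyruvate dehydrogenase kinases. The liver can also run the pathway backwards through gluconeogenesis, and hepatoma cells are known for a shift of isozymes, from glucokinase to hexokinase 2 among others.

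Genes of the pathway differed in both directions between siRNA and NC cells. The kinases that hold back pyruvate dehydrogenase, PDK1 and PDK3, the glycolytic regulator PFKFB3, aldolase C and the mitophagy receptor BNIP3 were lower in siRNA cells by more than 1.5-fold, while hexokinase 2 and the muscle-type phosphofructokinase PFKM were higher by more than 1.5-fold. These are 5 of 42 members lower (11.9%) and 2 of 42 higher (4.76%). Among all genes with a probe set of their own, 2.54% were at least 1.5-fold lower and 4.09% at least 1.5-fold higher, so the share of higher members was near that of all genes. No member reached 2-fold in either direction, against 0.543% of all genes lower and 1.25% higher by that much. Of the 42 members, 27 had a lower value in siRNA cells, 14 a higher value and PFKFB1 the same value on both arrays; among all genes 50.3% were lower. The median difference over the 42 members was -0.08, beside -0.0044 over all genes, and the differences of the middle 95% of all genes lay between -0.59 and 0.74.

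The level of a gene bears on these counts, because background signal compresses the differences of dim genes. As a gauge of level, the median of all probe set values, 4.66, was used; it was set by convention, and background was not measured. Of the 42 members, 32 lay at or above it on both arrays, ANKRD37 crossed it and 9 lay under it on both arrays, namely HK1, PFKP, PKLR, LDHB, PFKFB1, SLC2A2, PCK1, G6PC and FBP1. Among the 11044 genes whose mean of both arrays reached that level, 3.71% were at least 1.5-fold lower and 5.79% at least 1.5-fold higher, and the 5 lower and 2 higher members all belonged to them; 0.86% were at least 2-fold lower and 1.83% at least 2-fold higher, with no member among them. Over the 22 members whose mean reached the 75th percentile of all probe set values, 6.49, 17 were lower and 5 higher, with a median of -0.22. Of the 5336 genes of that level, 47.3% were lower, and their median was 0.02.

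**Figure D1:**
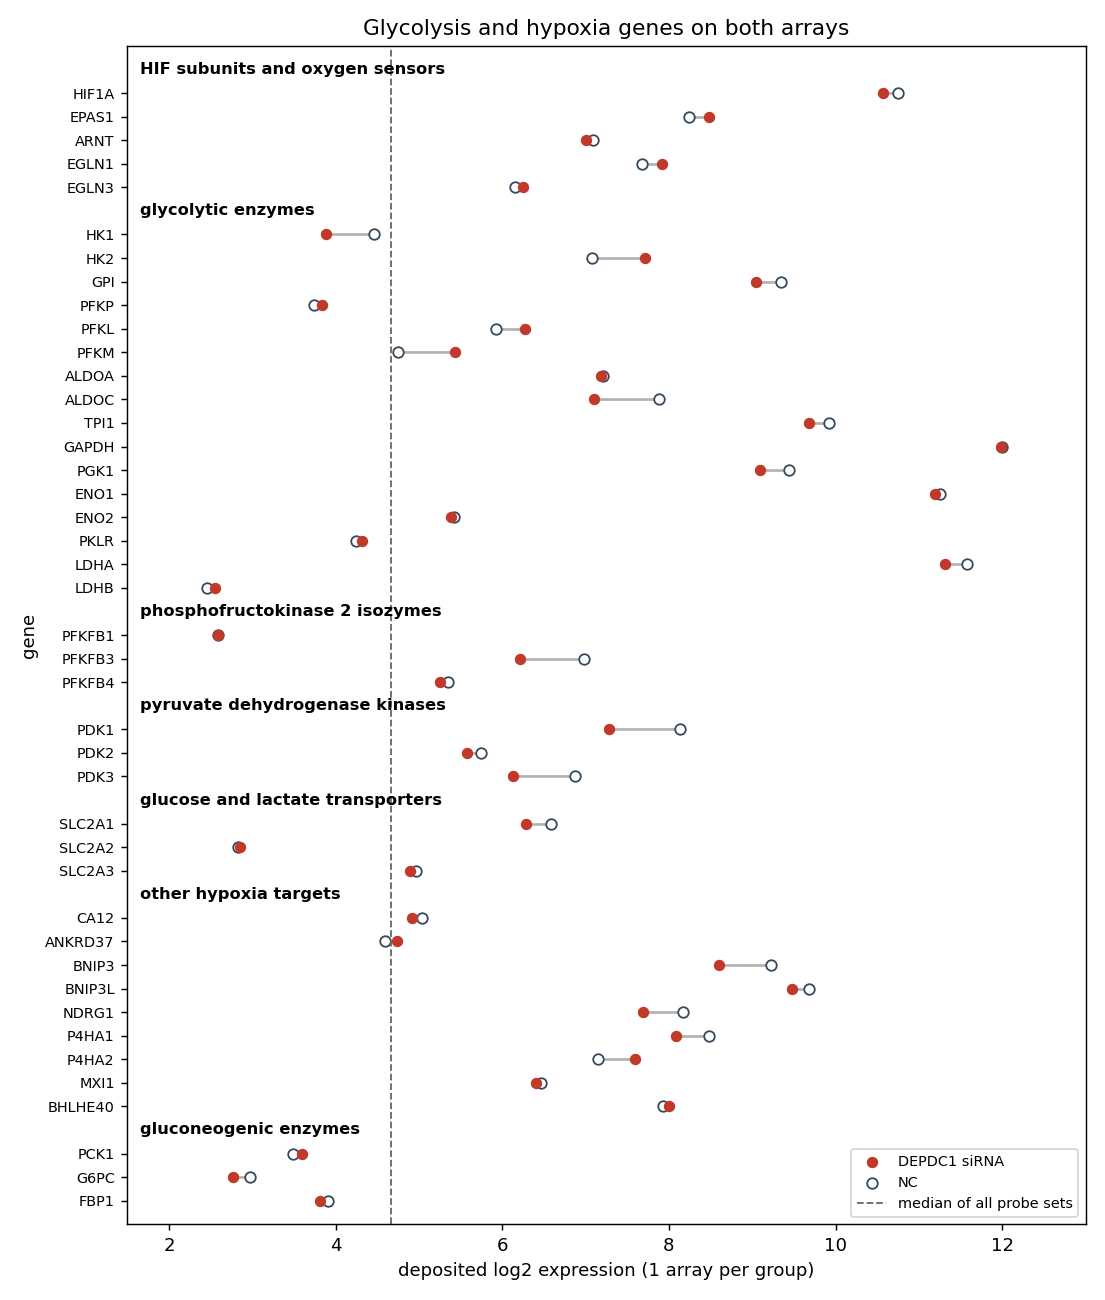
Deposited log2 expression (x axis) of the 42 members, grouped by role (y axis), in siRNA cells (filled) and NC cells (open), 1 array each; the dashed line is the median of all probe sets, 4.66. PDK1, PDK3, PFKFB3, ALDOC and BNIP3 lie further left in siRNA cells, and HK2 and PFKM further right.

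The promoters of the 7 members past 1.5-fold are shown because ACGTG is a common form of the core of the hypoxia response element, the site that HIF binds. Other forms of the core were not searched. ACGTG is also part of the E-box CACGTG bound by MYC, MAX, MXI1 and USF proteins. The sequences are RefSeq promoters (GRCh38.p14), the 250 bases before the transcript start, written 5′ to 3′ on the strand of the gene; capitals mark ACGTG on either strand, that is ACGTG or CACGT, and CACGTG holds both. For a gene with several starts, the window with the most such positions is shown. The windows are chr2:172555840-172556089 (+) for PDK1, chrX:24465036-24465285 (+) for PDK3, chr10:6202682-6202931 (+) for PFKFB3, chr17:28576896-28577145 (-) for ALDOC, chr10:131981924-131982173 (-) for BNIP3, chr2:74834920-74835169 (+) for HK2 and chr12:48105231-48105480 (+) for PFKM. The first 5 belong to lower members and the last 2 to higher members.
PDK1: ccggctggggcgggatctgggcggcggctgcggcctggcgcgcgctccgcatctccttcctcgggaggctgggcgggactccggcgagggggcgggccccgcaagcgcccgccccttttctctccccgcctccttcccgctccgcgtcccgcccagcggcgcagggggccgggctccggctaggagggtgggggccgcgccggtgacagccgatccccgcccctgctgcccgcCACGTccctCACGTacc
PDK3: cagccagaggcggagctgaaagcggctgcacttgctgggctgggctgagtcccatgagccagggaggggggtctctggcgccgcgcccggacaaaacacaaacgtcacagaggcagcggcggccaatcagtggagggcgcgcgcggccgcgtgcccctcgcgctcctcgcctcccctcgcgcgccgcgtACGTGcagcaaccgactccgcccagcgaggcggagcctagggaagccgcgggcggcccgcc
PFKFB3: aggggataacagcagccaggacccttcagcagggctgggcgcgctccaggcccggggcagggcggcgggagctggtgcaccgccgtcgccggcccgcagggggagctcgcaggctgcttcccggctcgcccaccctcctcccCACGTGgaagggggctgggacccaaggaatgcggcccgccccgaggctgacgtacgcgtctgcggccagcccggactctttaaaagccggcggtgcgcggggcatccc
ALDOC: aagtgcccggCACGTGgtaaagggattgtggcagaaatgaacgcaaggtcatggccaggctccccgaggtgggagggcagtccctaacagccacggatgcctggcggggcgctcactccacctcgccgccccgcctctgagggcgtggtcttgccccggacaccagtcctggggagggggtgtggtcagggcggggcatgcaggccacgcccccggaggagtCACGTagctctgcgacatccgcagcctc
BNIP3: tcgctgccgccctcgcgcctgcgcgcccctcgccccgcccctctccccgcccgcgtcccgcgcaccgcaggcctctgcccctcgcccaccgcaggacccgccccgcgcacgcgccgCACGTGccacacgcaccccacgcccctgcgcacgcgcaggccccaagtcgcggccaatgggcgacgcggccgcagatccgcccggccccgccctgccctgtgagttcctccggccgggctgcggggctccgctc
HK2: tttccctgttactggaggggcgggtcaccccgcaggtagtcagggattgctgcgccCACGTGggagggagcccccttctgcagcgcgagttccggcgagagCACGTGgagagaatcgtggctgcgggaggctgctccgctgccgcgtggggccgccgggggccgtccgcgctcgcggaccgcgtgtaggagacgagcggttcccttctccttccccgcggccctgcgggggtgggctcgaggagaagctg
PFKM: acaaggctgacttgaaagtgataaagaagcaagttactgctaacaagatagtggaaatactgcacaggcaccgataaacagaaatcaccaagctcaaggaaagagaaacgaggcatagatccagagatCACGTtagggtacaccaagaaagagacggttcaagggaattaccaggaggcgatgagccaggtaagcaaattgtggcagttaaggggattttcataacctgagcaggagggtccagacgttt

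All 7 genes held the motif in at least 1 window, in both directions of difference. By the same count, 26 of 42 members with a window (61.9%) and 21.7% of the 27305 genes in the table held it. The list holds known HIF targets by choice, so these shares do not compare like sets of genes. A gene with several windows has more chances to hold it. PDK1 held it in 1 of its 2 windows, PFKFB3 in 1 of 2 and PFKM in 1 of 7, while both windows of HK2 held it. CACGTG was present in the shown windows of PFKFB3, ALDOC, BNIP3 and HK2. Among the members between the 1.5-fold lines, 16 of the 31 with a RefSeq window held the motif. Over all members, 29 of 76 windows (38.2%) held it, beside 18.5% of the 35116 windows in the table; the windows of members also had more G and C, with a median of 67.4% beside 58%. Windows of 42 members were found, SLC16A3, CA9, EGLN2 and PGAM1 included. SLC2A3, SLC16A1, BNIP3L, NDRG1 and PCK1 had no window in the table. A match describes the letters in this window and no binding was measured.

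Of the subunits and oxygen sensors, none differed by 1.5-fold. HIF1A, the oxygen-labile alpha subunit of HIF-1, had 10.56 in siRNA cells and 10.75 in NC cells, a difference of -0.18. EPAS1, which encodes HIF-2 alpha, had 8.48 in siRNA cells and 8.25 in NC cells, a difference of 0.24. Their shared partner ARNT differed by -0.09. The direction thus differed between the alpha subunits, both by less than 1.2-fold. EGLN1, the main oxygen sensor that hydroxylates HIF-1 alpha, had 7.92 in siRNA cells and 7.67 in NC cells (0.25), and EGLN3, itself a HIF target, 6.25 in siRNA cells and 6.16 in NC cells (0.09). The probe set of EGLN2 that also names the readthrough transcript RAB4B-EGLN2 differed by 0.16. The array measures RNA, whereas HIF-1 alpha is set mainly at the protein level.

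At glucose uptake and phosphorylation, HK2 alone passed 1.5-fold. SLC2A1, which encodes the transporter GLUT1, had 6.29 in siRNA cells and 6.58 in NC cells, a difference of -0.30. SLC2A3 (GLUT3) had 4.89 in siRNA cells and 4.96 in NC cells, and SLC2A2, the liver transporter GLUT2, lay under the median of all probe sets on both arrays (2.85 in siRNA cells and 2.82 in NC cells). No transporter passed 1.5-fold. HK2, the inducible hexokinase of tumour cells, had 7.72 in siRNA cells and 7.08 in NC cells, 1.56-fold higher, and 642 of the 18417 genes had a larger positive difference. HK1, the housekeeping hexokinase, had 3.89 in siRNA cells and 4.46 in NC cells, both under the median of all probe sets, so it is given without a fold.

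Phosphofructokinase 1, the committed step, had a higher value in siRNA cells at each subunit, by unequal amounts. PFKM, the muscle subunit, had 5.44 in siRNA cells and 4.75 in NC cells, 1.61-fold higher. Its NC value lay just above the median of all probe sets, 4.66. PFKL, the liver subunit, had 6.27 in siRNA cells and 5.93 in NC cells, 1.27-fold higher. PFKP, the platelet subunit, was dim on both arrays and differed by 0.10. The enzymes that make fructose 2,6-bisphosphate, the allosteric activator of this step, did not share that direction. PFKFB3, the isozyme with the highest kinase activity and a known HIF target, had 6.21 in siRNA cells and 6.98 in NC cells, 1.71-fold lower, and 228 genes had a lower difference. PFKFB4, also induced by hypoxia, had 5.25 in siRNA cells and 5.35 in NC cells, and the liver isozyme PFKFB1 was dim, at 2.59 on each array.

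Of the middle and lower steps, ALDOC alone passed 1.5-fold at the probe set used for each gene, and the smaller differences went both ways. GPI, the phosphoglucose isomerase, had 9.04 in siRNA cells and 9.34 in NC cells (-0.30). ALDOC, the brain-type aldolase and a HIF target, had 7.10 in siRNA cells and 7.89 in NC cells, 1.72-fold lower, while its ubiquitous isozyme ALDOA had 7.18 in siRNA cells and 7.20 in NC cells (-0.02). TPI1, triosephosphate isomerase, had 9.69 in siRNA cells and 9.92 in NC cells (-0.23) at its brighter probe set. Its dimmer probe set differed by -0.59, just past 1.5-fold. The size of its difference, and whether it passes 1.5-fold, thus depend on the probe set. PGK1, phosphoglycerate kinase, had 9.10 in siRNA cells and 9.44 in NC cells (-0.34). GAPDH had 11.98 in siRNA cells and 11.99 in NC cells (-0.01), a difference that turned to 0.02 with quantile normalization. Enolases ENO1 and ENO2 differed by -0.06 and -0.04. The 5 probe sets shared by PGAM1 and PGAM4 each differed by 0.17 to 0.20. LDHA, the lactate dehydrogenase subunit that HIF induces, had 11.31 in siRNA cells and 11.58 in NC cells (-0.26). LDHB, the heart-type subunit, and PKLR, the liver pyruvate kinase, lay under the median of all probe sets on both arrays and differed by 0.09 and 0.07. Of the 16 glycolytic enzymes with a probe set of their own, 10 were lower and 6 higher, with a median difference of -0.03. Over the 9 at or above the 75th percentile of level, 8 were lower, and the median was -0.23. Among all genes 50.3% were lower, and among all genes at or above that percentile 47.3%.

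**Figure D2:**
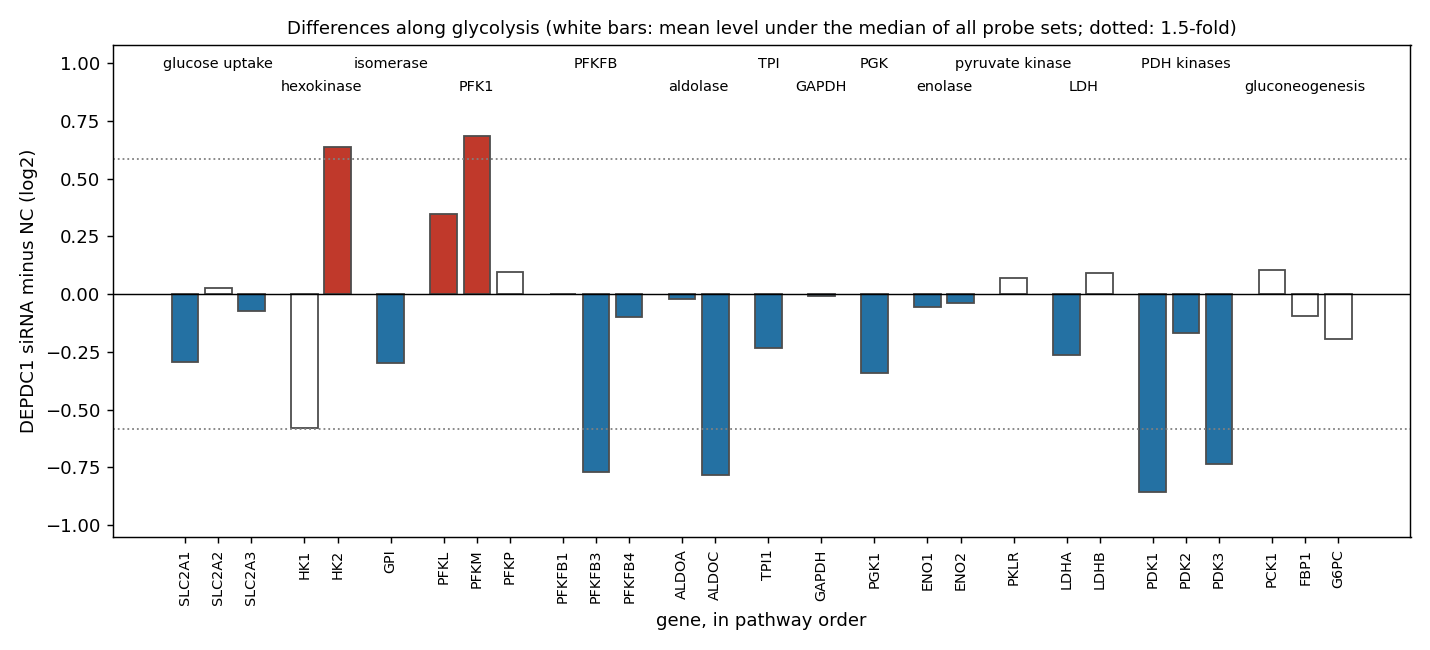
Difference of siRNA minus NC cells in log2 (y axis) for 28 members in pathway order (x axis), 1 array per group; white bars have a mean under the median of all probe sets and dotted lines mark 1.5-fold. HK2, PFKL and PFKM stand above 0 near the start, and PFKFB3, ALDOC, PDK1 and PDK3 lie between -0.86 and -0.74.

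At the exit from glycolysis, the pyruvate dehydrogenase kinases phosphorylate and switch off the pyruvate dehydrogenase complex. All 3 listed kinases were lower in siRNA cells. PDK1, the isozyme best known as a HIF target, had 7.28 in siRNA cells and 8.13 in NC cells, 1.81-fold lower, the largest difference of any member; 159 of the 18417 genes had a lower difference. PDK3 had 6.13 in siRNA cells and 6.87 in NC cells, 1.67-fold lower. PDK2 had 5.58 in siRNA cells and 5.75 in NC cells (-0.17). The fourth kinase, PDK4, a starvation-induced isozyme outside the list, had 4.32 in siRNA cells and 3.36 in NC cells, both under the median of all probe sets, so it is given without a fold. MPC1, a subunit of the mitochondrial pyruvate carrier, was 1.71-fold lower (7.49 in siRNA cells and 8.27 in NC cells), and its partner MPC2 differed by -0.48. The pyruvate dehydrogenase subunits PDHA1, PDHB and DLAT differed by -0.23, -0.45 and -0.05.

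Hypoxia targets outside glycolysis were divided. BNIP3, which recruits mitochondria to autophagy, had 8.60 in siRNA cells and 9.22 in NC cells, 1.54-fold lower. Its paralog BNIP3L had 9.47 in siRNA cells and 9.68 in NC cells (-0.21). NDRG1, a stress-responsive gene widely used as a hypoxia marker, had 7.69 in siRNA cells and 8.17 in NC cells (-0.48). The catalytic alpha subunits of collagen prolyl 4-hydroxylase differed in opposite directions: P4HA1 had 8.08 in siRNA cells and 8.49 in NC cells (-0.40), and P4HA2 had 7.59 in siRNA cells and 7.15 in NC cells (0.44). Neither passed 1.5-fold. MXI1, a MAX partner that opposes MYC, the repressor BHLHE40, the carbonic anhydrase CA12 and the ankyrin repeat gene ANKRD37 differed by -0.05, 0.08, -0.12 and 0.15. Of the 9 measured targets, 6 were lower and 3 higher, beside 50.3% of all genes lower. The median over the 9 was -0.12, and over the 6 at or above the 75th percentile of level it was -0.30.

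The gluconeogenic enzymes were dim. PCK1, the cytosolic phosphoenolpyruvate carboxykinase, had 3.60 in siRNA cells and 3.49 in NC cells. FBP1, fructose-1,6-bisphosphatase, had 3.81 in siRNA cells and 3.91 in NC cells, and G6PC, the glucose-6-phosphatase of the liver (current symbol G6PC1), 2.77 in siRNA cells and 2.97 in NC cells. All 6 values lay under the median of all probe sets, so a difference in these transcripts could not be read.

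**Figure D3:**
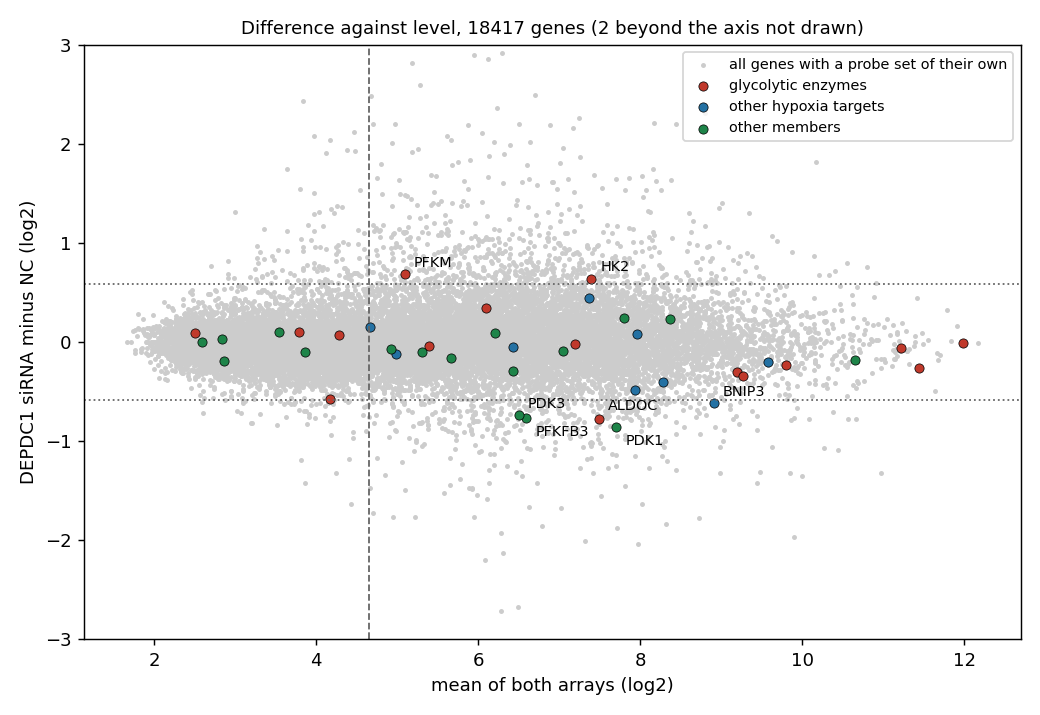
Difference of siRNA minus NC cells (y axis, log2) against the mean of both arrays (x axis, log2) for all 18417 genes (grey) and the 42 members (coloured by role); dotted lines mark 1.5-fold and the dashed line the median of all probe sets. The 7 named members lie past the dotted lines, and the grey cloud reaches well beyond them at the same levels. The axis ends at a difference of 3 in either direction, and 2 genes beyond it are not drawn.

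The remaining genes of the pathways were read from 2 further lists. In glucose handling, 46 of 50 genes had a probe set of their own. Of these, 2 were lower (4.35%) and 4 higher (8.70%) by 1.5-fold or more as measured, beside 2.54% and 4.09% of all genes. The median difference was -0.06. Among the 36 whose mean reached the median of all probe sets, 1 was lower and 3 were higher, GCKR and PDK4 being left out. Of all genes of that level, 3.71% were lower and 5.79% higher by 1.5-fold or more. The largest difference was that of TXNIP, the thioredoxin-interacting protein that limits glucose uptake and is induced by glucose through the MondoA and ChREBP factors: 7.60 in siRNA cells and 5.41 in NC cells, 4.58-fold higher. Its relative ARRDC4, known to respond to the same factors, had 4.38 in siRNA cells and 3.88 in NC cells, both under the median of all probe sets. PCK2, the mitochondrial phosphoenolpyruvate carboxykinase, had 6.65 in siRNA cells and 5.11 in NC cells, 2.90-fold higher. PDK4 and GYS1 were the other higher genes. MPC1 was lower, as was GCKR, the glucokinase regulatory protein, which was dim on both arrays (3.38 in siRNA cells and 4.01 in NC cells). PKM, the pyruvate kinase gene of most proliferating cells, differed by -0.19.

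In the second list, of hypoxia genes, 52 of 56 had a probe set of their own. Of these, 4 were lower (7.69%) and 6 higher (11.5%) by 1.5-fold or more as measured, beside 2.54% and 4.09% of all genes. The median difference was -0.02. Among the 44 whose mean reached the median of all probe sets, 4 were lower and 5 higher, CXCR4 being left out. Of all genes of that level, 3.71% were lower and 5.79% higher by 1.5-fold or more. The lower genes included AK4, a mitochondrial adenylate kinase, with 7.08 in siRNA cells and 8.21 in NC cells. That is 2.20-fold lower, a difference of -1.13, at the brighter of its 2 probe sets. By the mean of its 2 probe sets the difference was -0.86, so its size depends on the probe set. PLOD2, a collagen lysyl hydroxylase, was 1.68-fold lower, with 9.06 in siRNA cells and 9.81 in NC cells, whereas its paralog PLOD1 was 1.61-fold higher, with 8.33 in siRNA cells and 7.63 in NC cells. RORA, a nuclear receptor, was 1.84-fold lower and TF, the plasma iron carrier transferrin and also a hepatocyte marker, 2.12-fold lower. Higher genes were VLDLR, a lipoprotein receptor (2.62-fold), ADM, the vasodilator peptide adrenomedullin (1.96-fold), CITED2, which competes with HIF-1 alpha for the coactivators CREBBP and EP300 (1.88-fold), IGFBP3 (1.51-fold) and the chemokine receptor CXCR4, at least 1.16-fold higher since its NC value lay under the median of all probe sets. VEGFA, the classical angiogenic target, had 8.12 in siRNA cells and 8.19 in NC cells (-0.08).

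**Figure D4:**
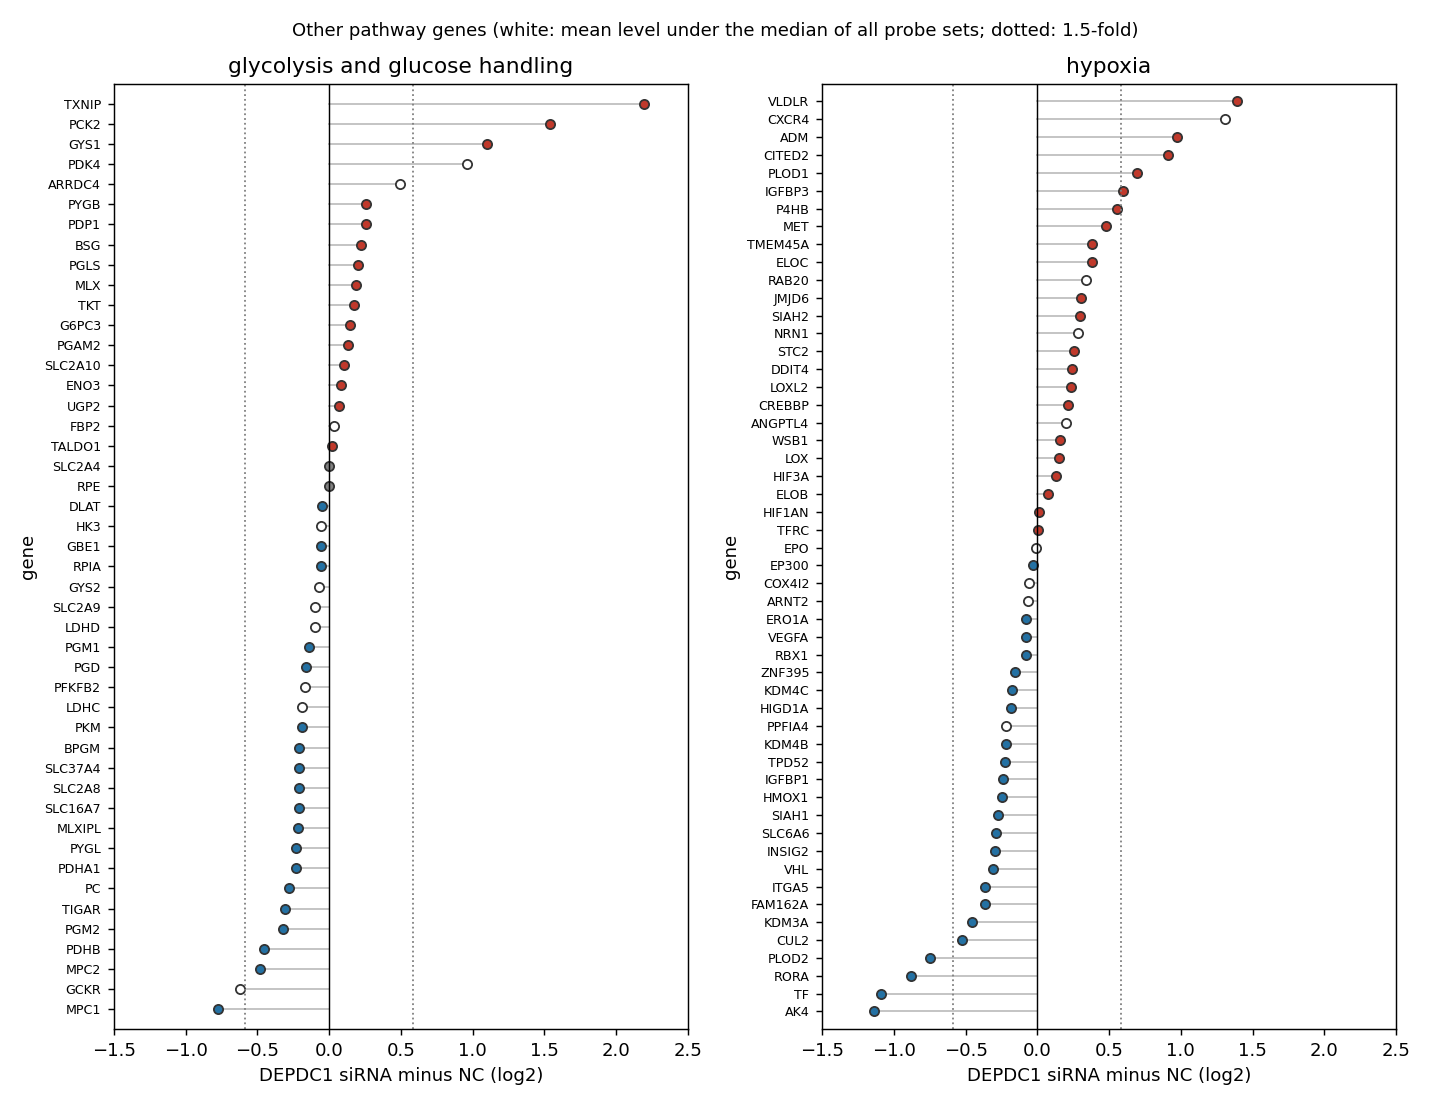
Difference of siRNA minus NC cells in log2 (x axis) for the other genes of glucose handling (left, 46 genes) and hypoxia (right, 52 genes), sorted by difference (y axis); white points have a mean under the median of all probe sets and dotted lines mark 1.5-fold. TXNIP and PCK2 stand apart at the top of the left panel, and AK4 and TF at the bottom of the right panel.

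The identity of the cells and the markers of other cell types were read beside these values. All 10 measured hepatocyte and Huh-7 markers lay above the median of all probe sets on both arrays, and 5 of them were at least 1.5-fold lower in siRNA cells, among them AFP (8.92 in siRNA cells and 10.89 in NC cells) and TF, the transferrin gene also counted among the hypoxia genes. TTR, the carrier transthyretin, went the other way, with 9.72 in siRNA cells and 8.31 in NC cells, and APOA2 and APOH differed by 0.40 and 0.13. The summed linear level of the 10 markers was 8597 in siRNA cells and 13066 in NC cells. Of 8 fibroblast and stellate cell markers, LUM and COL1A2 were at least 2-fold higher. COL1A1, COL3A1 and PDGFRA differed by only 0.06, -0.04 and 0.09. DCN, PDGFRB and ACTA2 lay under the median of all probe sets on both arrays. The summed linear level of the 8 was 1275 in siRNA cells and 437 in NC cells. That sum rests mainly on LUM, the brightest of them (9.95 in siRNA cells and 7.64 in NC cells). All 4 endothelial markers lay under it too, with a summed linear level of 49.3 in siRNA cells and 51.2 in NC cells. Of the 5 measured leukocyte markers, PTPRC, CD3E and CD68 lay under it, while LYZ had 6.05 in siRNA cells and 4.85 in NC cells and CD14 had 7.10 in siRNA cells and 6.83 in NC cells. The part of these shifts in the differences of glycolysis and hypoxia genes was not tested. In bulk RNA, a change in the share of cells and a change in RNA per cell cannot be told apart.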

How the data were processed

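RNA of both cultures was read as 33297 probe sets on each array. The submitters' processing notes name Affymetrix Expression Console, and Transcriptome Analysis Console in version 3.0, without their role; background correction and normalization are not given in the sources used here. The deposited values, made by the authors, carry no stated unit and were taken as log2 expression from their range, 1.39 to 12.7. They were also taken as already normalized by the authors, since the sorted columns differed by at most 0.0997 on the log2 scale. The number of arrays limits the precision.

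Gene names came from the platform annotation in GEO: 19460 probe sets listed 1 gene, 1754 several and 12083 none here. Symbols were updated through Entrez identifiers against RefSeq (GRCh38.p14), which matched 19429. The members and lists were chosen with earlier results of these data known. With 1 array per group no test was run, and genes were counted at 1.5-fold and 2-fold. All members are named; of the further lists, genes at least 1.5-fold different are named, and any other gene there was chosen after its value was seen. Probe sets of the same gene gauged measurement noise: over 422 genes, the range of their differences had a median of 0.082 and a 90th percentile of 0.38. Computation used pandas 2.3.3. The procedure was run on simulated data with planted 2-fold changes, which checks the computation and not the spread between cultures. Alternatives changed the probe set rule, the filter on level and the scaling.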

Additional observations from a re-analysis of the deposited data

How the results depend on the processing

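No paired analysis was possible because each group had 1 array, and for the same reason no replicate could be left out. Counts and medians were recomputed with the mean of all probe sets of a gene, with filters on level at the median and at the 75th percentile of all probe sets, with centred differences, with quantile normalization, with dim values raised to the median of all probe sets, and with probe sets of several genes allowed. The 5 lower members stayed at least 1.5-fold lower, and no member reached 2-fold, under each of these. The 7 members past 1.5-fold each had 1 probe set and lay above the median of all probe sets on both arrays. Their differences therefore could not change with the probe set rule, the filters on level or the raising of dim values. Centring moved PDK1 only from -0.856 to -0.857. With quantile normalization the 5 lower members lay between -0.87 (PDK1) and -0.62 (BNIP3). HK2 and PFKM stayed at least 1.5-fold higher wherever they were measured; with genes at or above the 75th percentile only, PFKM was left out and the count of higher members was 1. That filter also gave medians of -0.22 over 22 members, -0.23 over the glycolytic enzymes and -0.30 over the other hypoxia targets, since fewer and brighter genes entered. Among single genes, TPI1 moved to -0.41 and AK4 to -0.86 with the mean of their probe sets. No member past 1.5-fold and no median reversed its direction. Differences of dim genes, HK1 and the gluconeogenic enzymes among them, are limited by signal over background, which was not measured here.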

Other observations

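Branches that leave glycolysis showed little difference apart from 1 gene of glycogen synthesis. GYS1, the glycogen synthase of muscle and most tissues, had 7.42 in siRNA cells and 6.32 in NC cells, 2.14-fold higher, while the liver isozyme GYS2 was dim on both arrays (2.36 in siRNA cells and 2.43 in NC cells). The glycogen phosphorylases PYGB and PYGL differed by 0.26 and -0.23, the branching enzyme GBE1 by -0.05 and UGP2, which makes UDP-glucose, by 0.07. In the pentose phosphate pathway, PGD differed by -0.16, PGLS by 0.20, TKT by 0.17, TALDO1 by 0.02 and RPIA by -0.06.

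The deposited values of 1940 of the 33297 probe sets (5.83%) were identical on both arrays to all 6 decimals. Their share was 9.85% among probe sets with a mean under the median of all probe sets and 1.81% among the others. They include PFKFB1 of the members, and SLC2A4 and RPE of the further lists, so a difference of 0 there should be read with that in mind.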
